A study of Mus musculus with 10 samples.

Results

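The 10 genes described here move fatty acids from the blood across the capillary endothelium, and they were followed in cardiac endothelial cells of mice on a control or a ketogenic diet. They were chosen by name, with earlier results of these data known. All 10 were found among the 46983 genes of the count table. They are the scavenger receptor Cd36, the fatty acid transport proteins Slc27a1, Slc27a3 and Slc27a4, the fatty acid binding proteins Fabp4 and Fabp5, lipoprotein lipase (Lpl) and its capillary anchor Gpihbp1, and the transcription factors Meox2 and Tcf15. The animals were male C57BL/6J mice that carried no engineered allele and were 8 weeks old when the diets began. For 14 days, 5 mice received a control diet with 11.6% of its energy as fat and 5 a ketogenic diet with 89.5%. Cells were pulled from the whole heart with CD31 antibodies on magnetic beads, and 1 library was made per mouse, so that every test below runs over mice. Library totals lay between 10885154 and 12710861 counted reads, a 1.17-fold span over which control and ketogenic libraries overlapped (exact permutation test, two-sided, p = 0.230).

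The heart draws much of its energy from fatty acids, which reach it mostly as triglycerides in lipoproteins. LPL, made largely by the cells of the tissue itself, is carried by GPIHBP1 to the lumen of the capillary, where it releases fatty acids. CD36 and the transport proteins then take the fatty acids up into the endothelial cell, and the binding proteins carry them through the cytosol. Meox2 and Tcf15 form a heterodimer that drives several of these genes in the endothelium of the heart.

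The bead-isolated cells bore the markers of their labelled type. The 12 endothelial markers, Pecam1 and Cdh5 among them, together held 5755 to 6159 CPM (counts scaled to library size) on the control diet and 5588 to 6197 on the ketogenic diet, and 0 of 12 passed an adjusted p of 0.05. Other cells contributed as well. The 12 cardiomyocyte markers summed to 644 to 827 CPM on the control diet and 765 to 1101 on the ketogenic diet, with 4 of 5 ketogenic mice above every control mouse, and 0 of 12 passed the test. Their median log2 fold change was 0.34, with Ttn highest at 1.03 (adjusted p = 0.0605). The 7 adipocyte markers, which matter here because adipocytes also express Fabp4, Cd36 and Lpl, were at or near 0, with no marker above 9 reads in any mouse. Macrophage markers ranged from 115 to 567 CPM on the control diet and from 110 to 217 on the ketogenic diet, and lymphocyte markers from 295 to 404 and from 250 to 286, with 1 of 8 called lower. Ranges of the fibroblast (701 to 774 and 682 to 835), smooth muscle and pericyte (2498 to 2673 and 2446 to 2699) and erythroid and platelet markers (688 to 920 and 484 to 773) overlapped between the diets, and 0 were called. Some markers had nearly even raw counts in all mice, such as Pecam1 (6770 to 7020), Tie1 (7460 to 7746) and Rgs5 (7457 to 7691). Others, such as Kdr (7281 to 9501), varied more. Where counts are that even, similar sums do not show similar cell content. In a bulk preparation, fewer cells of a type and less RNA per cell cannot be told apart.

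Fabp4 and Fabp5 are paralogs that lie close together on chromosome 3, and Fabp5 has near copies elsewhere in the genome, so their sequences are shown first to make clear which reads each gene could collect. The stretch from base 61 to base 120 of the Fabp5 coding sequence is set beside bases 55 to 114 of Fabp4 (GENCODE M21 transcripts, GRCm38), and capitals mark the 16 positions at which they differ.
Fabp5: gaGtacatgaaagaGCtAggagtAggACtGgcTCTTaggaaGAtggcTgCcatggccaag
Fabp4: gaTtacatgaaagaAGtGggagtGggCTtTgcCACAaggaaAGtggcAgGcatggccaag
Over 347 aligned coding bases the paralogs were 63.1% identical, and their longest identical run was 12 bases. With reads of 50 bases, neither paralog could therefore take an exact match meant for the other. The near copies of Fabp5 are a different case, as the first 60 coding bases show, where capitals mark departures from Fabp5.
Fabp5: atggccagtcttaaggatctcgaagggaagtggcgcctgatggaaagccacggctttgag
Gm6166: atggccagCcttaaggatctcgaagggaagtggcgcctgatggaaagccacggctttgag
Gm13998: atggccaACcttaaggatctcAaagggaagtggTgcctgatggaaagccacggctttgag
Gm6166, on chromosome 9 from 57483963 to 57484371, differed from Fabp5 at 5 of 405 coding bases, and Gm13998, on chromosome 2, at 19 of 335. Of all 50-base windows of the principal Fabp5 transcript, 21.1% also occurred in a transcript of another gene, and of the coding windows 54.8%. The 5 copies themselves collected at most 34 reads in any mouse (Gm6166), against 694 or more for Fabp5. Reads lost or split in these windows would lower the Fabp5 count, so its level carries that uncertainty. Shared windows made up 4.11% of the principal Lpl transcript and 1.75% of that of Slc27a1, all outside the coding part. They made up 0% of the principal transcripts of the other 7 genes. Annotated parts beyond the principal transcripts were not searched.

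None of the 10 genes passed the test between the diets. edgeR's quasi-likelihood test called 0 of 10 at an adjusted p under 0.05, against 1.34% of the 15949 genes tested (213 genes), and DESeq2 and limma also called 0. At an unadjusted p under 0.05, 2 of 10 passed (Fabp5 and Slc27a4), beside 17.8% of all tested genes. Normalized counts of the diets overlapped for all 10 genes, while 4.34% of the tested genes did not overlap. Of the 10 fitted log2 fold changes, 6 were above 0 and 4 below, with a median of 0.08, and over all tested genes the median was -0.01. The plot of normalized counts by mouse shows the overlap gene by gene.

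**Figure D1:**
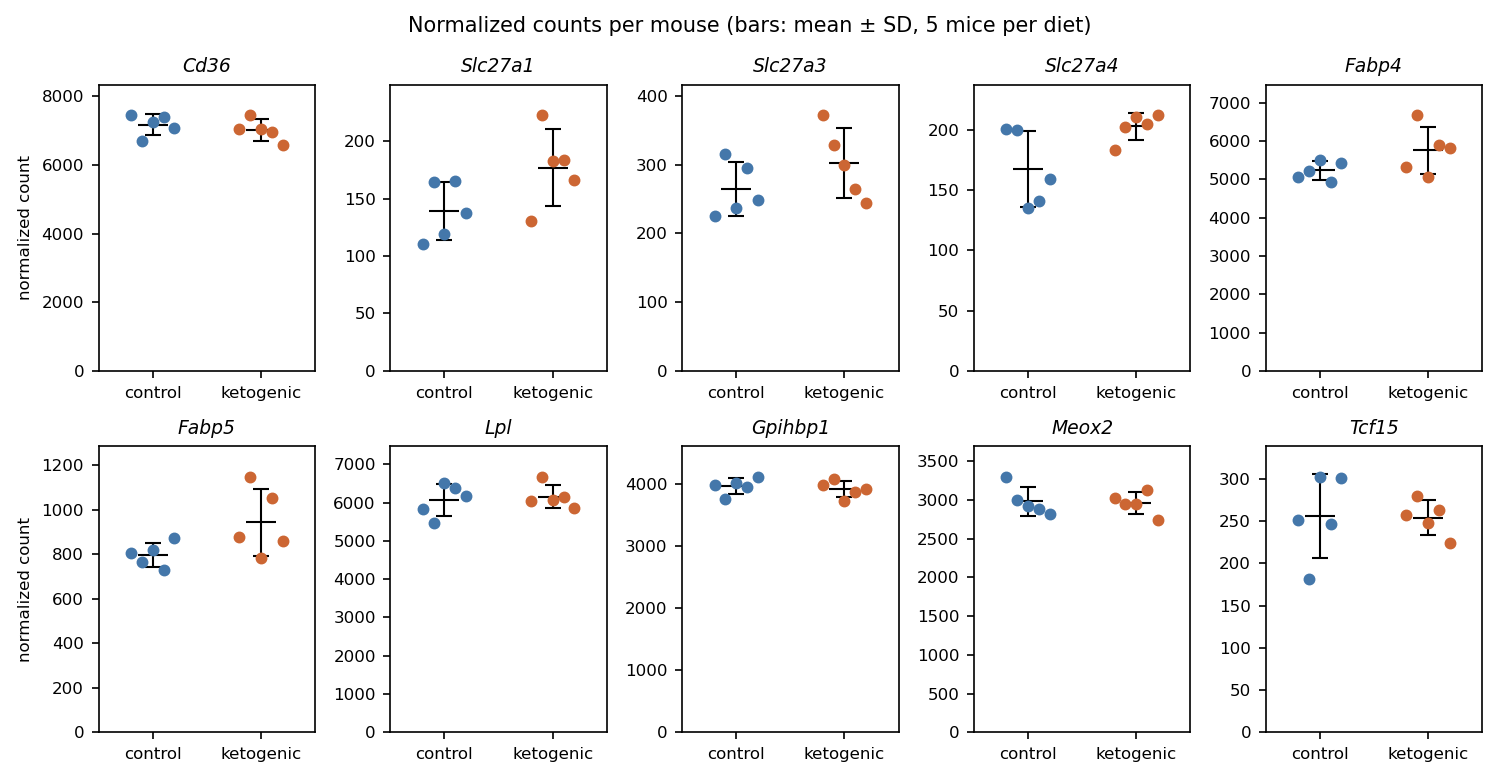
TMM-normalized counts (y axis, from 0, scaled to the mean library) of each of the 10 genes in the 5 mice of each diet (x axis). Points are mice and bars are the mean ± SD. For every gene at least 1 ketogenic mouse lies within the range of the control mice, and Slc27a1 and Slc27a4 have 4 of 5 ketogenic mice above all control mice.

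Cd36, the main receptor for long-chain fatty acids on cardiac capillaries, is transcribed from the minus strand of chromosome 5 (17781690 to 17888801 in GRCm38). Its raw counts were the most even of the 10 genes, from 6902 to 7218 reads, a 1.05-fold span. Normalized counts on the control diet were 7454, 6688, 7244, 7392 and 7075. On the ketogenic diet they were 7062, 7453, 7066, 6958 and 6577. The diets overlapped almost fully, with 7171 ± 307 against 7023 ± 313 (SD, n = 5 each) and a log2 fold change of -0.03 ± 0.038 (SE, edgeR adjusted p = 0.717).

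That evenness has to be read with the number of positions at which a read can start. The union of annotated Cd36 exons is 3590 bases long, which gives 7180 start positions over both strands, and the counts filled 96.1% to 100.5% of them. The same bound held across the table. Of 2389 genes with a median count of at least 1000 and the same identifier version in the annotation, the highest stood at 104% of its start positions. Counts thus appear limited to about 1 read per position and strand, although removal of duplicate reads is not given in the sources used here. Within a diet, the variance of the Cd36 count was 0.404 (control) and 0.173 (ketogenic) times its mean, below the value of random sampling of reads. The count leaves almost no room above it, so the fitted difference does not measure whether Cd36 RNA rose. Dividing so even a count by library size gives low values to large libraries, and the lowest normalized counts, 6688 and 6577, belonged to the largest library of each diet.

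Unscaled, the Cd36 counts did separate the diets. All 5 ketogenic mice, at 7129 to 7218 reads, lay above all 5 control mice, at 6902 to 7034. Among the 19 genes above 90% of their start positions, out of the same 2389 genes, 2 were higher in every ketogenic mouse in this way and 1 lower. Besides Cd36 these were Cd300lg, with 4644 to 4954 reads on the control diet and 5070 to 5119 on the ketogenic diet, and the immediate early gene Fos, with 4299 to 4369 and 4250 to 4298 (Cd300lg and Fos were singled out after their values were seen). These values were not tested, and library totals, which overlapped between the diets, differed too. The share of all tested genes whose raw counts do not overlap was not determined. For normalized counts that share was 4.34%, and on that scale Cd36 overlapped.

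**Figure D2:**
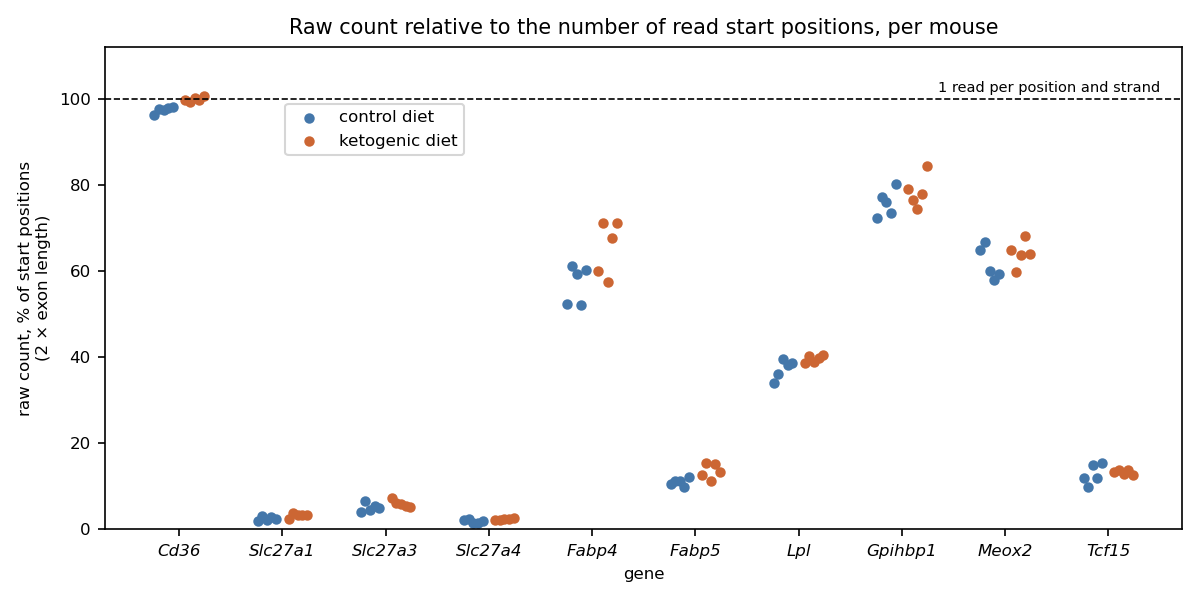
Raw count of each gene (x axis) as a percent of its read start positions (y axis, from 0), with 1 point per mouse coloured by diet. Start positions are 2 times the union exon length, or the RPKM length for Lpl and Slc27a1. Cd36 lies at the dashed line of 1 read per position and strand in all 10 mice, Gpihbp1, Meox2, Fabp4 and Lpl between 34.0% and 84.3%, and the other 5 genes below 16%.

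The fatty acid transport proteins had the lowest levels per length of the 10 genes, and their counts leave room for change in both directions, at 1.48% to 7.34% of their start positions. These proteins couple the uptake of long-chain fatty acids to their activation with coenzyme A. Slc27a1 (FATP1) had normalized counts of 110, 165, 119, 165 and 138 on the control diet. On the ketogenic diet it had 130, 223, 183, 184 and 166. Of 5 ketogenic mice, 4 exceeded every control mouse, and ketogenic mouse 1 lay inside the control range. The log2 fold change of 0.34 ± 0.158 (SE) was the highest of the 10 genes, from 139 ± 25.5 to 177 ± 33.4 (SD, n = 5 each), and did not pass after adjustment (edgeR, unadjusted p = 0.052, adjusted p = 0.285). The 95% interval ran from 0.998-fold to 1.61-fold.

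Slc27a4 (FATP4), the family member with the widest tissue distribution, showed a similar size of difference. Its normalized counts were 201, 200, 136, 141 and 159 on the control diet. They were 184, 203, 211, 205 and 212 on the ketogenic diet. The ketogenic values were tight, while control mice 1 and 2 lay well above the other 3. Slc27a4 had a log2 fold change of 0.28 ± 0.124 (SE), from 167 ± 31.5 to 203 ± 11.6 (SD, n = 5 each), with an unadjusted p of 0.0451 and an adjusted p of 0.267 (edgeR). A two-sided exact permutation test over mice gave p = 0.0556. For Slc27a3, whose product is best known as an acyl-CoA synthetase, counts went from 265 ± 39.1 to 302 ± 51.0 (SD, n = 5 each), with a log2 fold change of 0.19 ± 0.132 (SE, edgeR adjusted p = 0.483). Its interval, 0.933-fold to 1.39-fold, spans both directions.

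The binding proteins Fabp4 and Fabp5 varied together. Fabp4, on the minus strand of chromosome 3 (10204088 to 10208576), had normalized counts of 5072, 5227, 5516, 4925 and 5439 on the control diet. It had 5309, 6674, 5066, 5909 and 5810 on the ketogenic diet, where 3 of 5 mice exceeded every control mouse. The ketogenic mice were more spread than the control mice, with SDs of 622 and 247. For Fabp4 the log2 fold change was 0.14 ± 0.065 (SE), with an edgeR unadjusted p of 0.0586 and an adjusted p of 0.300. Without ketogenic mouse 2 it was 0.08, at an adjusted p of 0.418.

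Fabp5, on the plus strand of the same chromosome (10012548 to 10016607), had 806, 764, 818, 731 and 873 normalized counts on the control diet. On the ketogenic diet it had 877, 1149, 781, 1053 and 860, and 3 of 5 mice exceeded every control mouse. As with Fabp4, ketogenic mice 2 and 4 were highest and ketogenic mouse 3 lowest. The log2 fold change was 0.24 ± 0.0988 (SE), from 798 ± 54.3 to 944 ± 152 (SD, n = 5 each), with an unadjusted p of 0.0307 and an adjusted p of 0.226 (edgeR). The exact permutation p was 0.0714. Over the 10 mice, the deviations of the paralogs from their diet means had a Pearson r of 0.883, the highest of the pairs among the 10 genes. This is a description of mice that share a library for both values.

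Fabp4 counts also stood at 52.1% to 71.1% of the start positions of its full exon set, which includes long annotated parts beyond the principal transcript of 896 bases. That transcript alone offers 1792 start positions, and the counts were 2.61 to 3.56 times as many. At 1 read per position, at least 2886 Fabp4 reads in each mouse therefore began outside its principal transcript. The same held for Gpihbp1, with at least 2041 reads outside a transcript of 825 bases. Counts of Fabp5 were 0.352 to 0.557 times the start positions of its principal transcript, and those of Lpl 0.656 to 0.780 times. When each count was corrected for repeated use of start positions, the Fabp4 log2 fold change was 0.27 (edgeR adjusted p = 0.196) and that of Fabp5 0.26. This correction treats all annotated start positions as equally open to reads. The Fabp4 and Gpihbp1 counts exceeded the positions of their principal transcripts. A rise in those transcripts may therefore be missed, with or without the correction. No corrected value can be had for Cd36.

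Lpl and Gpihbp1 belong to the step before uptake, and neither passed the test. Lpl, on chromosome 8 (68880491 to 68907448), had normalized counts of 5834, 5462, 6513, 6383 and 6161 on the control diet. On the ketogenic diet it had 6051, 6675, 6061, 6152 and 5848. The log2 fold change was 0.02 ± 0.0499 (SE, edgeR adjusted p = 0.866), and the 95% interval ran from 0.941-fold to 1.09-fold. With the cardiomyocyte marker score as a covariate it was -0.07 (adjusted p = 0.666). The part of cardiomyocyte RNA in the Lpl count was not tested beyond that. Corrected for repeated use of start positions, without the covariate, the Lpl log2 fold change was 0.04 (edgeR adjusted p = 0.790).

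Gpihbp1, on chromosome 15 (75596628 to 75599481), is restricted to capillary endothelium in normal tissue. Its normalized counts were 3986, 3752, 4014, 3954 and 4115 on the control diet. They were 3979, 4085, 3727, 3868 and 3923 on the ketogenic diet. For Gpihbp1 the log2 fold change was -0.02 ± 0.0336 (SE, edgeR adjusted p = 0.824), with an interval of 0.939-fold to 1.04-fold. These counts stood at 72.3% to 84.3% of the start positions, which compresses differences, and the corrected log2 fold change was 0.04 (adjusted p = 0.758). The Gpihbp1 counts exceeded the positions of its principal transcript, so this corrected value has the limit given for Fabp4.

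The transcription factors likewise did not pass. Meox2, a homeobox factor on chromosome 12 (37108540 to 37179534), had 3299, 2999, 2924, 2880 and 2816 normalized counts on the control diet. It had 3018, 2950, 2950, 3128 and 2746 on the ketogenic diet. For Meox2 the log2 fold change was -0.01 ± 0.0475 (SE, edgeR adjusted p = 0.919), with an interval of 0.923-fold to 1.07-fold. The counts filled 58.0% to 68.2% of the start positions, which compresses differences. The corrected log2 fold change was 0.02 (edgeR adjusted p = 0.923). An intronic gene, Gm48617, is annotated inside Meox2 on the same strand. Tcf15, its basic helix-loop-helix partner on chromosome 2 (152143561 to 152149097), had 251, 181, 302, 246 and 301 normalized counts on the control diet. It had 257, 279, 247, 262 and 224 on the ketogenic diet, all inside the control range. Its mean went from 256 ± 49.7 to 254 ± 20.3 (SD, n = 5 each), with an interval of 0.813-fold to 1.21-fold.

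The level of each gene was ordered by the deposited RPKM (reads scaled to gene length and library size). Over the 10 mice the median was 107.6 for Meox2, 89.9 for Fabp4, 81.9 for Gpihbp1, 72.7 for Cd36 and 66.0 for Lpl. A gap followed, with Tcf15 at 22.1 and Fabp5 at 17.1. The transport proteins came last, with Slc27a1 at 5.04, Slc27a3 at 3.60 and Slc27a4 at 3.59. Neighbours in this order were compared within mice, and 8 of 9 pairs differed (two-sided exact sign-flip permutation test on log2(RPKM + 1), adjusted p between 0.00293 and 0.00879). Slc27a3 and Slc27a4 did not differ beyond their spread (exact sign-flip permutation test, p = 0.199). The level of Cd36 is a lower bound, because its count stands at the bound on start positions, so its place below Gpihbp1 is not settled by this test. Counts of Fabp4 and Gpihbp1 exceeded the positions of their principal transcripts, and those of Meox2 and Lpl were compressed. The order among Meox2, Fabp4, Gpihbp1, Cd36 and Lpl, by either length, is therefore one of counts and need not be that of RNA levels.

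This order depends on which length is used. The length implied by the deposited RPKM of Cd36 is 8348 bases, 2.33 times the union of its annotated exons, and that of Slc27a3 is 2.59 times and that of Gpihbp1 1.62 times the union. For Meox2 and Tcf15 the lengths were equal. Across the 25077 genes compared, the RPKM length equalled the union for 54.7% and the sum of all distinct annotated exons for 71.2%. Per kilobase of union exon length, Cd36 led with a median of 1969 normalized counts, followed by Gpihbp1 (1553), Meox2 (1250), Fabp4 (1197) and Lpl (768). Tcf15 had 259, Fabp5 235, Slc27a3 109, Slc27a1 59.1 and Slc27a4 45.5. For Lpl and Slc27a1, whose identifier versions differ, the RPKM lengths of 7953 and 2795 bases were used instead. Their unions in GENCODE M21 are longer, at 10478 and 5835 bases, and would give lower levels. The place of Slc27a1 above Slc27a4 is therefore not settled. With the lengths used, 7 of 9 neighbours differed, Slc27a1 and Slc27a4 among them. By the same exact permutation test, Meox2 and Fabp4 (p = 0.385) and Tcf15 and Fabp5 (adjusted p = 0.266) did not differ beyond their spread. Cd36, Gpihbp1 and Slc27a3 stood higher in this order than in that by RPKM.

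**Figure D3:**
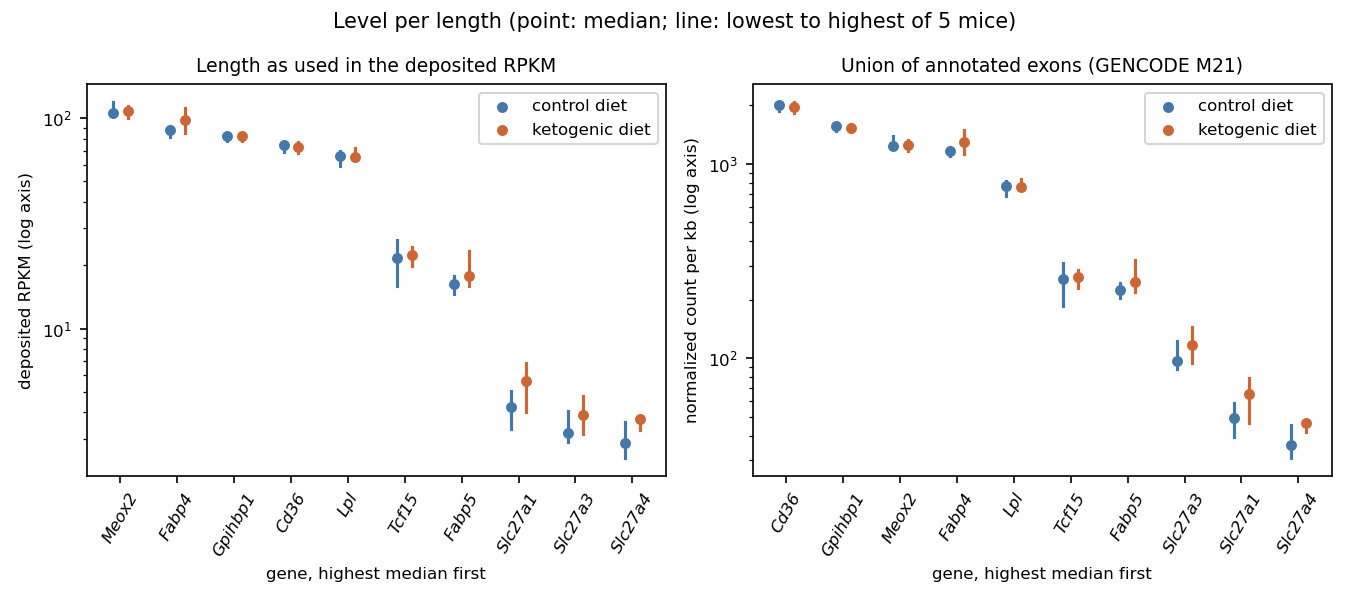
Level per length of the 10 genes, highest first, on log axes. Left, deposited RPKM. Right, normalized count per kilobase of union exon length, or of the RPKM length for Lpl and Slc27a1. Points are medians and lines run from the lowest to the highest of 5 mice per diet. Meox2 leads on the left (107.6) and Cd36 on the right (1969), and the transport proteins are lowest on both.

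Related genes of the same pathway were read from the same fit. The wider list held 71 genes, of which 59 were tested and 4 passed, 2 higher and 2 lower on the ketogenic diet. That compares with the 1.34% called of all tested genes, and 0 of the 4 calls remained with the cardiomyocyte marker score as a covariate. The median log2 fold change of the 59 genes was 0.02. The plot of fold changes sets these 4 beside the 10 transport genes. For comparison, Pdk4, the kinase that holds back glucose oxidation when fatty acids are burned and the gene with the smallest p of all, rose from 597 ± 80.9 to 1619 ± 184 normalized counts (SD, n = 5 each, log2 fold change 1.44).

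**Figure D4:**
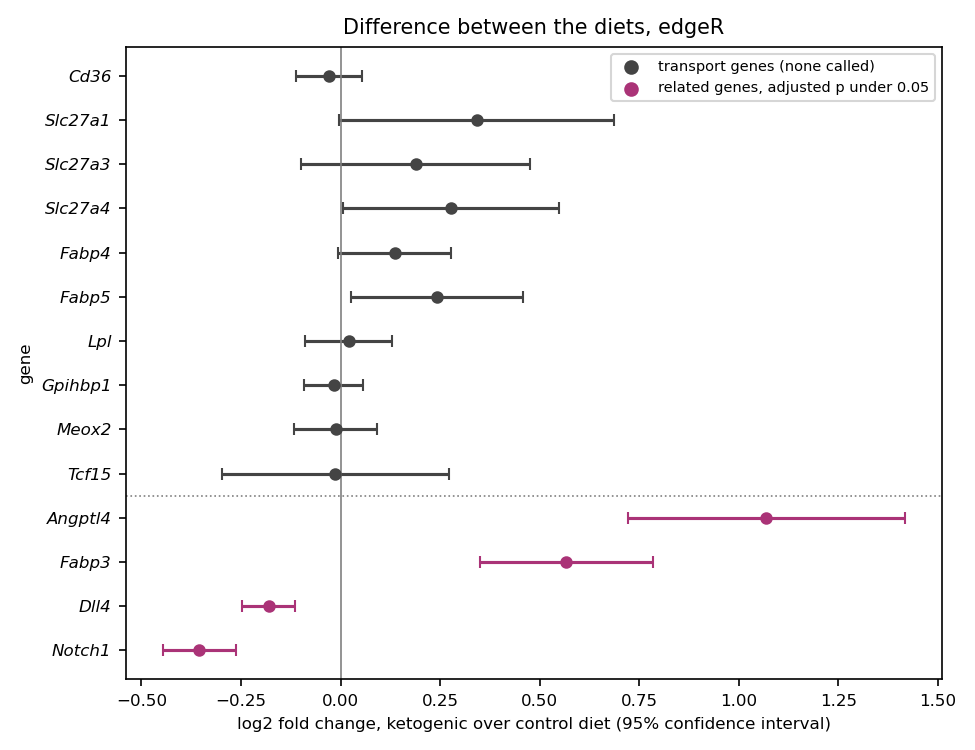
Log2 fold change of the ketogenic over the control diet (x axis) with 95% confidence intervals from edgeR, for the 10 transport genes above the dotted line and the 4 related genes with an adjusted p under 0.05 below it. The transport genes lie between -0.03 and 0.34. Angptl4 (1.07) lies far to their right, and Notch1 (-0.35) and Dll4 (-0.18) to the left of 0.

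Among regulators of LPL, Angptl4, a secreted inhibitor that inactivates the enzyme, rose. Its normalized counts were 993, 1881, 1976, 1651 and 2273 on the control diet. They were 3710, 3870, 3624, 3647 and 3571 on the ketogenic diet, so that every ketogenic mouse lay above every control mouse and their spread was small. The mean went from 1755 ± 481 to 3684 ± 115 (SD, n = 5 each), a log2 fold change of 1.07 ± 0.160 (SE, edgeR adjusted p = 0.00885). The enzyme and its anchor had the intervals around 1-fold given above, and the difference between these genes was not itself tested. Their counts were 0.656 to 0.780 times (Lpl) and 2.24 to 2.61 times (Gpihbp1) the start positions of the principal transcripts. A rise in Gpihbp1 may therefore be missed and one in Lpl understated, so the intervals do not show that both stayed level. The other 7 tested regulators in this group did not pass, among them Lmf1 and Sel1l, which are needed for LPL to fold, at log2 fold changes of -0.01 and 0.08. With the cardiomyocyte marker score as a covariate, Angptl4 was at 0.98 and no longer passed (adjusted p = 0.122). Corrected for repeated use of start positions, without that covariate, it was at 1.22 (edgeR adjusted p = 0.00723). Angptl4 counts filled a median of 26.1% of the start positions. Its principal transcript was not examined for the limit given for Fabp4, so the small spread may partly be one of counts.

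Of the lipoprotein receptors, 7 were tested and 0 passed. Vldlr, the receptor for triglyceride-rich particles, had 31.1 ± 15.02 and 80.3 ± 21.8 normalized counts (SD, n = 5 each, log2 fold change 1.36, edgeR adjusted p = 0.0743). Sdc4, a heparan sulfate proteoglycan with the highest RPKM of this group (51.1), had a log2 fold change of 0.06.

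Among the other binding proteins, Fabp3, the form typical of heart muscle, rose from 104 ± 10.0 to 154 ± 8.19 normalized counts (SD, n = 5 each), with a log2 fold change of 0.57 ± 0.0994 (SE, edgeR adjusted p = 0.0204). Every ketogenic mouse (145 to 163) lay above every control mouse (87.7 to 114). With the cardiomyocyte marker score as a covariate it was at 0.47 and did not pass (adjusted p = 0.215). The call was also lost without control mouse 3 (adjusted p = 0.0533) or ketogenic mouse 4 (0.0536), and with replicate number as a block (0.0729). Fabp7, Pmp2 and Fabp9 were tested and did not pass, and Fabp1 and Fabp2, the liver and intestinal forms, had 0 reads in all mice. In the transport protein family, Slc27a5 had 3 to 20 raw reads and did not pass, and Slc27a2 and Slc27a6 had at most 3 reads in any mouse.

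**Figure D5:**
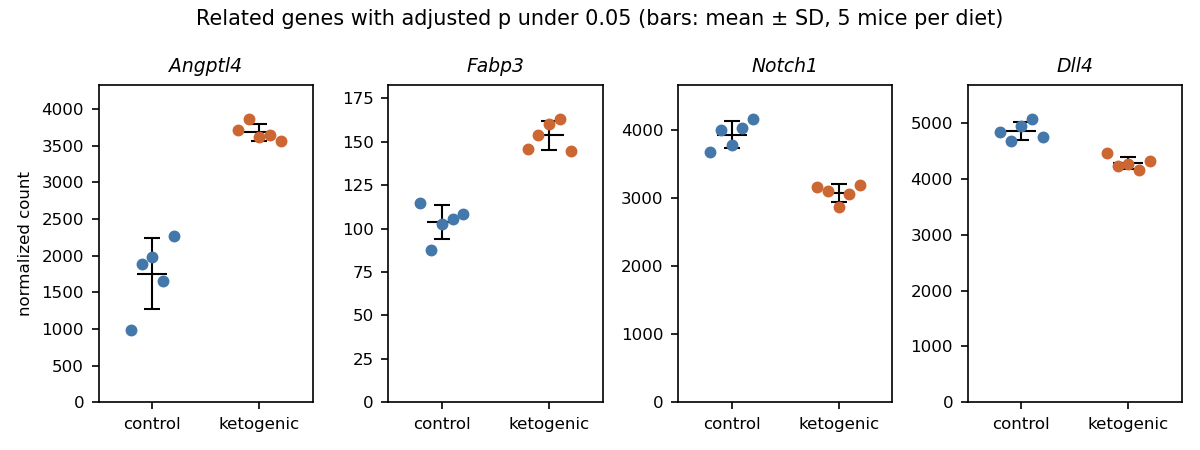
TMM-normalized counts (y axis, from 0) of the 4 related genes with an adjusted p under 0.05, in the 5 mice of each diet (x axis). Points are mice and bars are the mean ± SD. The diets do not overlap for any of the 4 genes, and the 5 ketogenic values of Angptl4 lie between 3571 and 3870.

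Among the 19 genes that control fatty acid transport in endothelium, 2 passed, both of the Notch pathway and both lower on the ketogenic diet. Notch1, the receptor, went from 3933 ± 199 to 3077 ± 129 normalized counts (SD, n = 5 each, log2 fold change -0.35 ± 0.0417 SE, edgeR adjusted p = 0.00222). Dll4, its ligand on capillaries and arteries, went from 4854 ± 160 to 4282 ± 111 (log2 fold change -0.18 ± 0.0307 SE, adjusted p = 0.0170). Every ketogenic mouse had fewer normalized counts than every control mouse for both genes. Corrected for repeated use of start positions, the log2 fold change was -0.38 for Notch1 (edgeR adjusted p = 0.00257) and -0.26 for Dll4 (adjusted p = 0.0136). With the cardiomyocyte marker score as a covariate neither passed, at -0.30 (adjusted p = 0.0673) and -0.18 (adjusted p = 0.143). The Dll4 call was also lost without control mouse 3, ketogenic mouse 3 or ketogenic mouse 4 (adjusted p from 0.0509 to 0.0533). It was lost as well with replicate number as a block (adjusted p = 0.0701). Rbpj, through which Notch acts on transcription, was at 0.03 and did not pass. Of the VEGF-B branch, which acts on endothelial fatty acid transport through Flt1 and Nrp1, Vegfb had a log2 fold change of 0.36 (adjusted p = 0.158), Flt1 -0.10 (adjusted p = 0.0734) and Nrp1 -0.05. Nrp1 counts filled 91.3% of their start positions. The lipid-activated receptor Pparg had a log2 fold change of 0.27 (adjusted p = 0.259) and its coactivator Ppargc1a 0.52 (adjusted p = 0.112).

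No gene of the other groups passed. These were the other lipases (5 of 5 tested), the proteins that place CD36 at the membrane (9 of 9 tested) and those that trap fatty acids inside the cell (6 of 8 tested). Several were near the bound as well, which limits what their counts can show. Cavin2, a caveolar coat protein with the highest RPKM of the wider list (165.5), filled 96.7% of its start positions, with 5888 to 5955 raw reads. Cav1 had 5131 to 5227 and Cav2 4951 to 5012, with log2 fold changes of -0.06 each. Lipa, the lysosomal acid lipase, stood at 103.8 RPKM with a log2 fold change of 0.02, and Acsl5, an acyl-CoA synthetase, at 78.8 RPKM with a log2 fold change of -0.01. Lipg, the endothelial lipase, had 19.1 ± 9.61 and 46.6 ± 13.3 normalized counts (SD, n = 5 each), at a log2 fold change of 1.28 (edgeR adjusted p = 0.0664).

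Genes most like the transport genes were sought by the Pearson r of their deviations from the diet means over the 10 mice, among 10843 genes with a median count of at least 100. Cd36 was closest to Cdc42 (0.999), Dazap2 (0.998) and Tmbim6 (0.997), genes that filled 42.9% to 77.7% of their start positions. Since even counts divided by library size all follow that size, such values say little about Cd36 itself. For Fabp4 the closest was a gene model known only by a number (0.963), followed by Dpm1 (0.960) and Cdk2 (0.959), and Fabp5 was closest to Ip6k1 (0.967) and then Sf3b1 (0.949). Gpihbp1 was closest to Cog3 (0.912), Lpl to Hbp1 (0.960) and Meox2 to Nid2 (0.932). Slc27a1 was closest to Rbmx (0.947), Slc27a3 to Pafah1b2 (0.954) and Slc27a4 to Map3k4 (0.971). These are among the highest of 10843 values for each gene over the same 10 mice and are given as a description.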

How the data were processed

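RNA of CD31+ cardiac cells was sequenced by the authors with the SMART-Seq v4 kit, which does not record strand, as single reads of 50 bases. The submitters' processing notes name bcl2fastq 2.17.1.14, STAR 2.3, HTSeq 0.6.0 and the mm10 build. The annotation release and any removal of duplicate reads are not given in the sources used here. The authors deposited raw counts per gene and, from these counts, RPKM values. Groups and replicate numbers came from the labels.

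Counts were normalized by TMM and tested with edgeR 4.0.16 (R 4.3.3), over 15949 genes kept by filterByExpr, with Benjamini-Hochberg adjustment over all of them. Normalized counts are scaled to the mean library, and SDs are over 5 mice. The 10 genes and the related and marker lists were chosen with earlier results of these data known. From the related list, genes with an adjusted p under 0.05 and the highest RPKM of each group were named, and other genes of it after their values were seen. Positions, exon lengths and sequences are from GENCODE M21 (GRCm38). Of 46983 identifiers, 46488 matched it, 37902 with the same version. Lpl and Slc27a1 differ in version, so their RPKM length was used. Start positions are 2 times the exon length. The correction for start positions, the order by union length and the alternatives for single genes were added after seeing the data. Alternatives were other scalings and filters, DESeq2 1.42.0, limma 3.58.1 on log2(RPKM + 1) and log2(RPKM + 0.1), a replicate block, a cardiomyocyte covariate and each mouse left out. Some genes that meet these rules are not reported here. The fits were tested on simulated data first.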

Additional observations from a re-analysis of the deposited data

Results flagged for a closer look

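Within each diet, the normalized counts of the 10 transport genes and the 4 called related genes were examined for a single mouse far from the other 4 (gap over range above 0.71). Of the 28 groups, 0 had such a mouse, where chance gives about 1.4.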

How the results depend on the processing

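All 10 transport genes stayed without a call in every setting that was run, and their lowest adjusted p was 0.143 (Fabp5, DESeq2). The log2 fold changes ranged from 0.08 to 0.27 for Fabp4, 0.16 to 0.31 for Fabp5, 0.20 to 0.44 for Slc27a1, 0.11 to 0.36 for Slc27a3 and 0.21 to 0.42 for Slc27a4. Gpihbp1, Lpl, Meox2 and Tcf15 lay on both sides of 0, without a call on either. The count of all called genes (213) and of called related genes (4) became 815 and 8 with DESeq2, 113 and 2 with the replicate block, and 28 and 0 with the cardiomyocyte covariate. The cause was not tested. With 1 mouse left out, these counts ranged from 86 to 492 and from 2 to 5, the latter lowest without control mouse 3 or ketogenic mouse 4. Without control mice 1 to 5 in turn, 109, 86, 98, 134 and 152 genes were called, and without ketogenic mice 1 to 5, 134, 492, 108, 95 and 134. Single transport genes with an exact permutation p under 0.05 numbered 0 with all mice and 0 to 2 with 1 mouse left out (Slc27a4 without control mouse 1 or 2, p = 0.0159, Slc27a1 without ketogenic mouse 1, p = 0.0317, Fabp4 and Fabp5 without ketogenic mouse 3, p = 0.0317 and 0.0238). Fabp3 lost its call with the replicate block (adjusted p = 0.0729) and without control mouse 3 (0.0533) or ketogenic mouse 4 (0.0536), and Dll4 with the replicate block (0.0701) and without control mouse 3, ketogenic mouse 3 or ketogenic mouse 4. No sign of pairing by replicate number was seen (r of deviations -0.134 to 0.0936, and no mouse matched its own number best), which does not exclude a pairing. An adipocyte covariate was not run because none of its 7 markers had enough reads. The variance between control mice was 6.22, 8.88, 7.06 and 8.36 times the mean count for Slc27a1, Slc27a3, Slc27a4 and Tcf15, above the counting error. Between ketogenic mice it was 4.87, 6.27, 1.64 and 0.390 times the mean, which for Tcf15 is below the counting error. The bound on start positions limits Cd36 and, within their principal transcripts, Fabp4 and Gpihbp1. To a lesser degree it compresses Meox2, at 58.0% to 68.2% of its positions. The same applies to Lpl, at 0.656 to 0.780 times those of its principal transcript.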
